A study of Rattus norvegicus with 6 samples.

Results

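Angiogenic factors and hypoxia signalling were followed in rat synovial fibroblast-like cells (RASFLs) through 10 genes, namely Vegfa, Vegfb, Vegfc, Figf, Pgf, Angpt1, Angpt2, Flt1, Hif1a and Adm. The genes were found by symbol among the 16499 symbols (17221 transcript rows) of the table, and the most abundant row stood for each symbol. Figf is the older symbol of Vegfd. All 10 were listed, and 8 passed the filter on low values and were tested. Vegfa had 0 reads in every library and Angpt2 had 0 to 4 reads, so neither was tested.

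The cells came from the joint lining of 2 female Wistar rats with collagen-induced arthritis, taken before any therapy. Cells of each rat were divided over 3 serological settings, which gave 6 libraries, 2 per setting. The standard setting used fetal bovine serum (FBS). In MS− the serum came from untreated animals, and in MS+ from animals that had received needle stimulation, acupuncture in the words of the labels, for 18 days. Per the study's methods, MS− serum was drawn before any therapy and MS+ serum at day 18. Stimulation and the time of sampling therefore cannot be told apart. The labels of MS− conflict, since 1 field has healthy rats and the disease field has arthritis. The paper describes the MS− donors as untreated animals with induced arthritis. If they were healthy, donor disease could not be told apart from stimulation either. The number of serum donors is not given, so n counts the rats whose cells were cultured, and the p-values measure only the spread between libraries of these 2 rats. All cultures shared 1 atmosphere of CO2 and O2, and low oxygen was not among the settings.

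The vascular endothelial growth factors are secreted proteins that bind receptor tyrosine kinases on endothelial cells. VEGF-A, VEGF-B and placental growth factor bind FLT1, whereas VEGF-C and VEGF-D bind FLT4 and act mainly on lymphatic vessels. Angiopoietin-1 activates the receptor TEK and stabilises vessels, angiopoietin-2 can oppose it, and adrenomedullin is a vasodilator peptide that signals through CALCRL paired with a RAMP protein. HIF-1α is the oxygen-regulated subunit of a transcription factor that, paired with ARNT, switches on many of these genes when oxygen is low; its amount is set mainly by protein breakdown. In the inflamed joint, synovial fibroblasts are a known source of such factors and new vessels feed the thickened lining.

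The reads counted to transcript rows were 5463316 to 5991889 per library, which leaves out reads not assigned to a row. Of the rows, 9678 to 9749 per library reached 1 CPM (counts scaled to library size). The floor used here, 3 reads in 1 library, was 0.491 to 0.551 CPM. Intervals and floors cover counting error only. The fibroblast label was checked against 12 markers, of which Col1a1, Col1a2 and Vim were the most abundant and Dcn and Lum stayed under 1 CPM in every library. Their summed level was 78860 to 85740 CPM in FBS, 60360 to 62950 in MS− and 69160 to 71640 in MS+. Of the 10 tested, limma with the rat as a block called 4 higher and 2 lower in MS+ than in FBS (28.2% of all features passed). In MS− against FBS it called 0 higher and 5 lower (20.5% of all). Between MS+ and MS− it called 2 higher and 0 lower (10.1% of all). Without the block only Pdpn passed, as lower than in FBS by limma in MS+ (log2 fold change -1.21, adjusted p 0.00555) and in MS− (-0.91, adjusted p 0.0139). The first call was lost without MS+ replicate 1 (0.0509), and the second without either replicate of FBS or of MS− (up to 0.101). Endothelial markers were sparse, with 13 of 16 in the table and 7 at 0 reads throughout (Cdh5, Tie1, Emcn, Cldn5, Robo4, Sox17 and Plvap). Their sum was 39.8 to 42.9 CPM in FBS, 42.7 to 51.0 in MS− and 28.3 to 28.5 in MS+. Most of this sum was Erg and Egfl7, and only Erg of these was lower in MS+. Egfl7 measured 13.91 and 13.93 CPM in FBS, 15.18 and 18.08 in MS−, and 14.23 and 18.54 in MS+. Its row overlaps rows of other symbols, Agpat2 among them. Of the 4 tested markers, 3 were below FBS in MS+ and 1 above, which was Egfl7 (0.21, limma adjusted p 0.501). Erg, an endothelial transcription factor, measured 25.05 and 21.39 CPM in FBS, 33.48 and 24.04 in MS−, and 12.79 and 8.08 in MS+. The log2 fold change of Erg was -1.11 in MS+ against FBS (limma adjusted p 0.0405, and 8.37e-05 when the rat was a block) and -1.39 in MS+ against MS− (0.117, and 7.04e-05 with the block). The first of these calls was lost without any 1 of the 6 libraries, without the filter and with only the groups compared (adjusted p up to 0.173). Sox18 had 1.80 and 2.49 CPM in FBS and at most 0.18 CPM elsewhere, and since it passed the filter only through FBS its test is not read. Mural cell markers (9 of 10 in the table, Rgs5 at 0) summed to 2396 to 2707 CPM in FBS, 3207 to 3218 in MS− and 3097 to 3160 in MS+. Most of this sum was Cspg4 (1681 to 2270 CPM) and Myh11 (624.8 to 1056 CPM). Myh11 was higher in MS+ than in FBS (0.55, limma adjusted p 0.0428), a call lost without any 1 library. Of the 6 tested, 4 were below FBS in MS+. With the block, Myh11 was higher and 2 were lower, where 28.2% of all features passed. These were Notch3 (-0.83, limma adjusted p 0.000769) and Des (-1.24, 0.0118), which passed the filter only through FBS. Macrophage and blood cell markers (12 of 14 in the table, 7 at 0) summed to 14.1 to 20.5 CPM over all libraries. The part of these marker levels in the differences between sera was not tested. In such bulk libraries fewer cells of a type and less RNA per cell cannot be told apart.

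The stretches before the transcription starts of 5 members are printed as examples of the letters in this window, and the windows of the other members are described below them. Whether these letters go with differences between sera was not tested. They are the 250 bases before the RefSeq start in build GRCr8, 5′ to 3′ on the strand of the gene, in lower case. Capitals mark matches on either strand. The letters searched were ACGTG and its variant GCGTG for the hypoxia response core, the box read as CCAAT, the box read as TATAAA, and the AP-1 motif, read as TGACTCA.
Adm, chr1:174179950-174180199, plus strand: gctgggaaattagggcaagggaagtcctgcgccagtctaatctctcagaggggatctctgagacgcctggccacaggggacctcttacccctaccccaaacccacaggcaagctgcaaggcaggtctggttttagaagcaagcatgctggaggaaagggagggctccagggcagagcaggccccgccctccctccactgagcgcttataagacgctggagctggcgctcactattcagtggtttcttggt
Vegfc, chr16:44560888-44561137, minus strand: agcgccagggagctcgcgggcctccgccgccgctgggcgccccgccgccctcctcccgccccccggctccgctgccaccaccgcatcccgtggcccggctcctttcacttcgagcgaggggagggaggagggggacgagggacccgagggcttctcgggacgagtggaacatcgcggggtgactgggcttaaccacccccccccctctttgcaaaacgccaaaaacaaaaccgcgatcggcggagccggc
Figf (Vegfd), chrX:33739893-33740142, minus strand: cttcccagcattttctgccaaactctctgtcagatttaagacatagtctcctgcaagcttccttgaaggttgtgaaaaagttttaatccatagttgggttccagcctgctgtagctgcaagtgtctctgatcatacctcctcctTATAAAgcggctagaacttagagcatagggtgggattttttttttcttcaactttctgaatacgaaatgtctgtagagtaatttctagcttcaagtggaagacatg
Hif1a, chr6:98359648-98359897, plus strand: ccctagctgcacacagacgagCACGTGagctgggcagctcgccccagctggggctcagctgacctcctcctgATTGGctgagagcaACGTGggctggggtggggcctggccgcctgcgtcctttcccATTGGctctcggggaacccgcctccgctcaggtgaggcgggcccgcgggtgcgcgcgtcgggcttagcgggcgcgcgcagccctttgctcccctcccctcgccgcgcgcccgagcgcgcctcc
Flt1, chr12:12333180-12333429, plus strand: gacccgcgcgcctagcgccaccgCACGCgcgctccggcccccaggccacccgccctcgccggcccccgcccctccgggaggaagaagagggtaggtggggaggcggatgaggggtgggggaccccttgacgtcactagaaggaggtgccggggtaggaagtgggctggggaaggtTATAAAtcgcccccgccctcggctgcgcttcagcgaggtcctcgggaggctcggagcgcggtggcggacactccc
Of the 10 members, 8 had an entry (Vegfa with 2 starts). Angpt1 and Angpt2 had none. The hypoxia core was found before 4 of the 8, which were Vegfb, Pgf, Flt1 and Hif1a, against 36.7% of all 33469 windows of the same length. The share of G and C was 69.2% to 73.6% in these 4 windows and 40.8% to 72.4% in the other member windows. Its median over all windows was 51.2%. The core itself holds the pair CG, and the part of this share in the matches was not tested. In Pgf, which was lower in MS− than in FBS only with the rat as a block, the core stood at 154 to 150 bases before the start. In Hif1a it stood at 228 to 224 and at 164 to 160 bases before the start, and the first of these also reads as the core on the opposite strand, so that the pair of matches overlaps. Figf and Flt1 held TATAAA, as did 12.9% of all windows, and CCAAT was held by Hif1a and by the second start of Vegfa, as by 34.0% of all. The windows of Adm and Vegfc held none of these letters, and no member window held the AP-1 motif (4.05% of all). A match is a description of the letters, and no match says only that they are not in this window.

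Adm was higher in MS+ than in both other sera. Its mean level was 17.02 CPM in MS+, against 6.83 CPM in FBS and 6.55 CPM in MS−, and it was the only member past the adjusted threshold in limma without the rat as a block. That call was for MS+ against FBS alone (adjusted p 0.0293), where 9.61% of all tested features passed, and it was lost in each of the 6 fits without 1 library. Against MS− the adjusted p of Adm was 0.126. Angpt1 and Vegfc were higher in both rat sera than in FBS within each rat, and in limma these differences passed the adjusted threshold once the rat was a block but not otherwise. Angpt1 passed the filter only through the rat sera, where it was high, so its calls against FBS are not read as support. Hif1a, Vegfb and Flt1 passed it in no comparison in either fit.

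**Figure D1:**
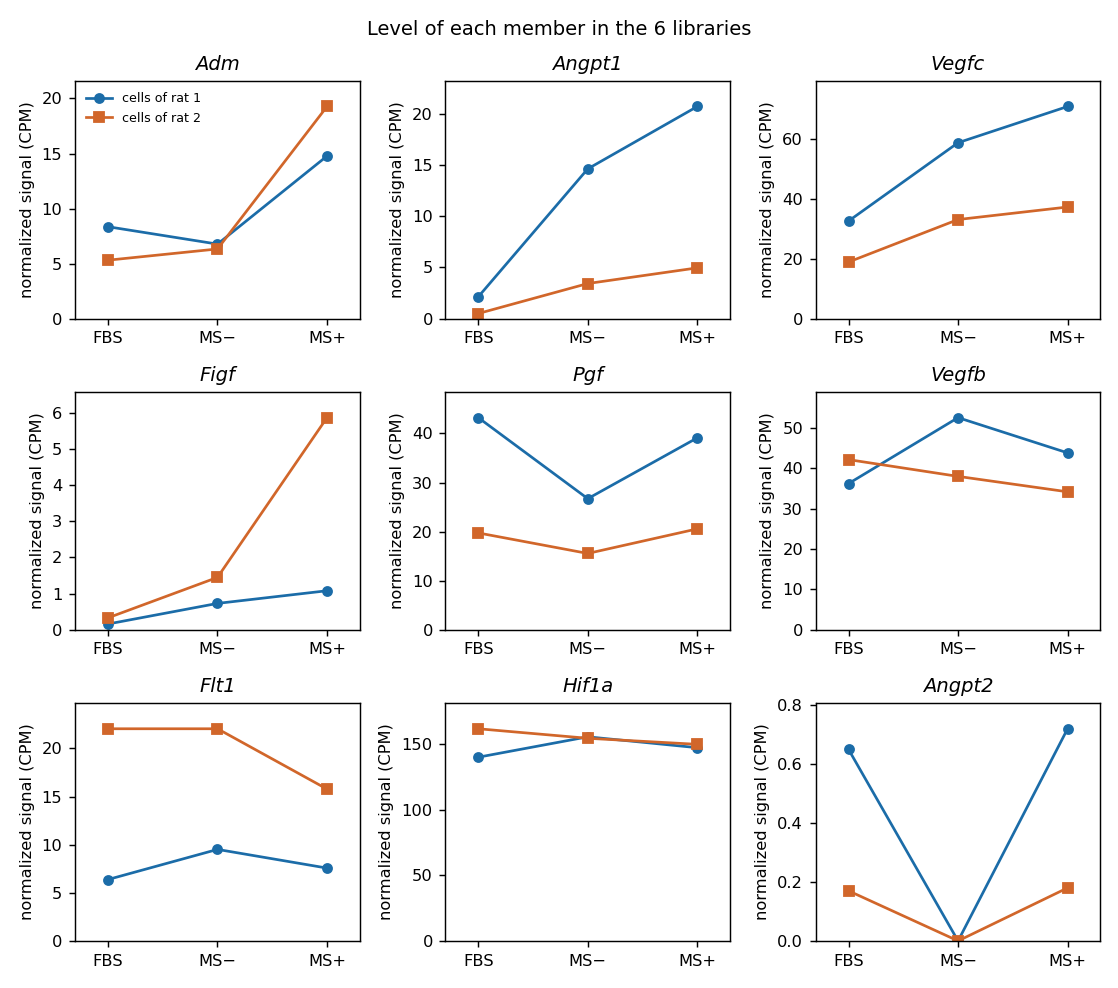
Normalized signal (CPM, linear axes from 0) of 9 members in FBS, MS− and MS+. Each point is 1 library, and lines join the libraries of cells from the same rat (circles, rat 1; squares, rat 2). Both MS+ points of Adm (14.77 and 19.27 CPM) lie above its 4 other points, while Hif1a stays between 140.1 and 161.8 CPM.

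The comparison of MS+ with MS− set the serum of stimulated animals beside that of untreated ones, which also differed in the time of sampling. The labels do not settle whether the donors differed in disease too. In limma on log2(CPM + 1), 0 of the 8 members passed the Benjamini-Hochberg adjusted threshold of 0.05, where 0.0204% of all 9820 features did. At unadjusted p under 0.05 there was 1 (Adm), where 14.7% of features were. The study rule asks for unadjusted p under 0.05, a 2-fold difference and a mean of 1 CPM. It also called Adm alone (higher), against 1.24% of features in either direction and 0.845% higher. Limma-voom and edgeR called 0 members, and DESeq2 called Adm. With the rat as a block, limma called Adm as higher (background 10.1%, and 5.27% higher), and edgeR called Pgf and Adm beside Figf. Figf passed the filter only through MS+, where it was high, so its calls are not read as support.

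For MS+ against FBS, 1 of 8 members passed the adjusted threshold in limma (Adm, higher), where 9.61% of features did and 4.95% were higher. At unadjusted p under 0.05, Vegfc, Angpt1 and Adm stood beside Figf (background 27.5%). The study rule called these genes as higher, against a background of 5.30%, or 2.37% higher, and they passed the adjusted threshold in the blocked fit, where 28.2% of features did and 14.4% were higher. Of these, Figf entered the test only through MS+, and Angpt1 only through the rat sera, the groups where each was high. Their calls against FBS, also those of Angpt1 for MS−, are not read as support. For MS− against FBS, limma called 0 members against 4.81% of features, with 1 member (Angpt1) at unadjusted p under 0.05 (background 21.1%). Limma-voom, edgeR and DESeq2 also called 0 there. The study rule called Angpt1 as higher (background 3.62%, and 1.24% higher), but not in limma-voom, without the filter, without FBS replicate 2 or without MS− replicate 1, and the stricter filter left it untested. With the block, Vegfc and Angpt1 were higher and Pgf was lower in MS− (background 20.5%, with 10.8% higher and 9.63% lower). Both comparisons use the same FBS libraries. Rat and bovine serum may differ in more than species, and these differences cannot be told apart here. The median log2 fold change of the 8 members was 0.33 for MS+ against MS−, 0.50 for MS+ against FBS and 0.22 for MS− against FBS. Over all tested features it was -0.01, 0.00 and 0.01. The medians of the members hold Figf and Angpt1 and are given as a description.

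**Figure D2:**
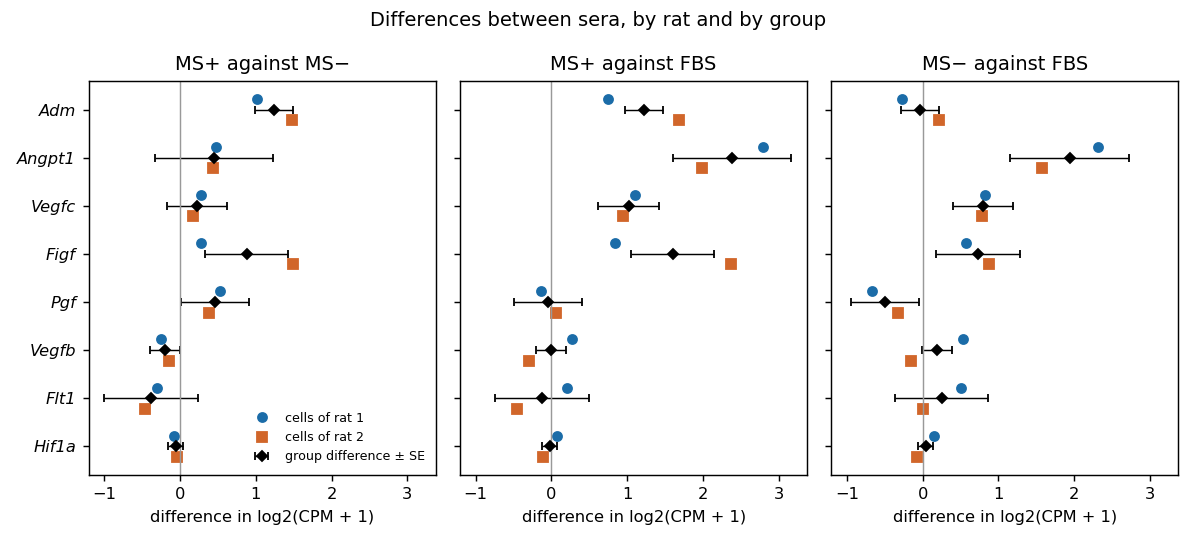
Differences between sera for the 8 tested members, in log2(CPM + 1). Circles and squares are the differences within rat 1 and rat 2, and diamonds with bars are the group difference ± SE of the unblocked fit. For Angpt1 the bars of the comparisons with FBS are wide (SE 0.78), while the differences of both rats lie on the same side of 0.

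Adm encodes adrenomedullin (NM_012715; chromosome 1, 168380255 to 168382426 in build rn4, plus strand). It measured 8.35 and 5.31 CPM in FBS, 6.77 and 6.33 CPM in MS−, and 14.77 and 19.27 CPM in MS+ (rat 1 and rat 2 in each). Both MS+ libraries were above the other 4, while FBS and MS− overlapped. The mean of Adm was 6.83 ± 2.15 CPM for FBS, 6.55 ± 0.31 for MS− and 17.02 ± 3.18 for MS+ (SD, n = 2 each).

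Relative to MS−, the log2 fold change of Adm in MS+ was 1.24 (SE 0.25), with 1.02 in rat 1 and 1.47 in rat 2. The limma adjusted p was 0.126, or 0.00244 once the rat was a block, and ranged from 0.00133 to 0.462 over the alternatives. Adm met the study rule in each of the 6 fits that left out 1 library. Relative to FBS it rose by 1.22 in MS+ (SE 0.25), with 0.75 in rat 1 and 1.68 in rat 2. The limma adjusted p of this rise was 0.0293, and with the block 0.000769. The unblocked call was lost without any 1 of the 6 libraries, where the adjusted p was 0.0538 to 0.134, and without FBS replicate 2 (0.107) the rise of 0.94 fell short of 2-fold. MS− differed from FBS by -0.03 (SE 0.25, limma adjusted p 0.970), and the 2 rats differed in sign.

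Vegfc encodes VEGF-C, the lymphatic ligand of FLT4 (NM_053653; chromosome 16, 40624435 to 40739692, minus strand). It measured 32.58 and 18.90 CPM in FBS, 58.72 and 33.08 CPM in MS−, and 70.81 and 37.26 CPM in MS+. Cells of rat 1 were higher than cells of rat 2 in every serum, and FBS did not overlap either rat serum. Within a rat, the MS+ level was 2.17 and 1.97 times that in FBS, and the MS− level 1.80 and 1.75 times. The log2 fold change was 1.02 (SE 0.40) in MS+ and 0.80 (SE 0.40) in MS− over FBS. Limma adjusted p was 0.156 and 0.309 without the block, and 1.24e-05 and 0.000152 with it. The 2 rat sera overlapped, with a log2 fold change of 0.22 for MS+ against MS− (limma adjusted p 0.861, and 0.278 with the block).

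Figf encodes VEGF-D, the other ligand of FLT4 (NM_031761; chromosome X, 50830612 to 50864445, minus strand). Its 6 values rested on few reads, with 1 and 2 in FBS, 4 and 8 in MS−, and 6 and 32 in MS+. In CPM these were 0.16 and 0.33, 0.73 and 1.45, and 1.08 and 5.87. It passed the filter only through MS+, the group where it was high, and rat 2 in MS+ held most of the reads. The ratio of MS+ to FBS was 6.60 in rat 1 (95% exact binomial interval 0.801 to 303.8) and 17.7 in rat 2 (4.52 to 152.5). For MS− it was 4.47 (0.442 to 220.1) and 4.36 (0.870 to 42.2). The interval of rat 1 in MS+ and both intervals of MS− include equal levels. On the log2(CPM + 1) scale, the MS+ level was 1.60 above FBS and 0.88 above MS− (SE 0.55 each). These differences are given without p-values, because the filter let Figf in only through MS+. The calls of Figf named in other paragraphs are not read as support.

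Vegfb encodes VEGF-B, a ligand of FLT1 (NM_053549; chromosome 1, 209657647 to 209661271, minus strand). It measured 36.18 and 42.11 CPM in FBS, 52.50 and 37.96 in MS−, and 43.78 and 34.14 in MS+. The 3 groups overlapped. The limma adjusted p was 0.636 to 0.974 over the 3 comparisons, and 0.407 to 0.957 with the block.

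Pgf encodes placental growth factor, which binds FLT1 as well (NM_053595; chromosome 6, 109215540 to 109226122, minus strand). It measured 43.22 and 19.73 CPM in FBS, 26.71 and 15.55 in MS−, and 39.10 and 20.56 in MS+. Cells of rat 1 were the higher in each serum and the groups overlapped, but within each rat MS− was the lowest. The log2 fold change of MS− against FBS was -0.50 (SE 0.45, limma adjusted p 0.579, and 0.0197 with the block). That of MS+ against MS− was 0.46 (SE 0.45, limma adjusted p 0.699, and 0.0514 with the block). MS+ and FBS were close (limma adjusted p 0.963).

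Vegfa, the central ligand of the family, was listed at 0 reads in all 6 libraries in each of its 5 rows (NM_031836, NM_001110333 and NM_001110334 at chromosome 9, 10520730 to 10536070; NM_001110335 and NM_001110336 at 10528154 to 10536070; plus strand). Each row shares its whole span with another row of the same symbol, and the counting mode drops reads that fit several rows alike. Of 137 symbols in which every row shares its span with another, 55 (40.1%) had 0 reads in all libraries, against 3985 of 15933 symbols with 1 row (25.0%). Fau, Psap and Gnas, which nearly every cell transcribes, are of this kind and were also listed at 0 (picked with their values in view). The part of the shared spans in the zeros was not tested, and the 0 of Vegfa is not read as a level in these cells.

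Angpt1 encodes angiopoietin-1, the agonist of TEK (NM_053546; chromosome 7, 78195504 to 78451471, minus strand). It measured 2.13 and 0.50 CPM in FBS, 14.63 and 3.43 CPM in MS−, and 20.72 and 4.96 CPM in MS+. FBS held the 2 lowest values, and the library of rat 1 was about 4.2 times as high as that of rat 2 in every serum (4.28 in FBS, 4.26 in MS− and 4.18 in MS+). Within a rat, the ratio of MS+ to FBS was 9.74 in rat 1 and 9.96 in rat 2, and that of MS− to FBS was 6.88 and 6.91. The FBS library of rat 2 held 3 reads, so that its ratios have 95% exact binomial intervals of 3.07 to 51.3 and 2.03 to 36.4.

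On the log2(CPM + 1) scale, Angpt1 differed from FBS by 2.39 in MS+ and 1.94 in MS− (SE 0.78 each). The limma adjusted p was 0.105 and 0.218 without the block, and 4.75e-06 and 4.35e-05 with it. Angpt1 passed the filter only through MS− and MS+, where it was high, so these p-values are not read as support. MS+ differed from MS− by 0.45 (SE 0.78, limma adjusted p 0.850, and 0.289 with the block). Angpt2, which encodes the context-dependent partner of angiopoietin-1 (NM_134454; chromosome 16, 75891757 to 75942255, plus strand), had 4 and 1 reads in FBS, 0 in both MS− libraries, and 4 and 1 in MS+. These counts are at or near the floor of 3 reads in a library, and no difference was detectable at this depth.

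Flt1 encodes VEGF receptor 1, which also exists as a soluble trap for its ligands (NM_019306; chromosome 12, 7858092 to 8035966, plus strand). It measured 6.38 and 22.05 CPM in FBS, 9.51 and 22.05 in MS−, and 7.57 and 15.78 in MS+. Here the cells of rat 2 were the higher in each serum, and the 3 groups overlapped. The log2 fold changes of -0.38, -0.12 and 0.25 (MS+ against MS−, MS+ against FBS and MS− against FBS, SE 0.62 each) did not pass in limma (adjusted p 0.837, 0.922 and 0.861, and 0.248, 0.680 and 0.399 with the block).

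Hif1a encodes HIF-1α (NM_024359; chromosome 6, 96419024 to 96463891, plus strand). It measured 140.1 and 161.8 CPM in FBS, 155.7 and 154.6 in MS−, and 147.4 and 149.95 in MS+. MS+ and MS− did not overlap but differed by only -0.06 (SE 0.10, limma adjusted p 0.836), and both lay within the range of FBS. Its log2 fold change against FBS was -0.02 in MS+ and 0.04 in MS−. Hif1a had the smallest SE of the 8 tested members. A transcript level gives no measure of HIF-1α protein, which is where oxygen acts.

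The cells of the 2 rats differed more in several of these genes than in most features. Over all tested features, the median absolute difference between rat 2 and rat 1 was 0.17 to 0.18 in log2(CPM + 1), and 2.64% to 2.78% of features differed by 1 or more. In FBS, 3 of the 8 tested members did so (Pgf, Angpt1 and Flt1), in MS− 2 (Angpt1 and Flt1), and in MS+ 2 (Figf and Angpt1). The difference of Angpt1 was -1.06 (FBS), -1.82 (MS−) and -1.87 (MS+), and that of Vegfc -0.75, -0.81 and -0.91. Flt1 went the other way, by 1.64, 1.13 and 0.97. Hif1a differed by 0.21, -0.01 and 0.02, and Adm by -0.57, -0.08 and 0.36. With 1 culture for each rat and serum, these differences have no replicates of their own and were not tested.

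**Figure D3:**
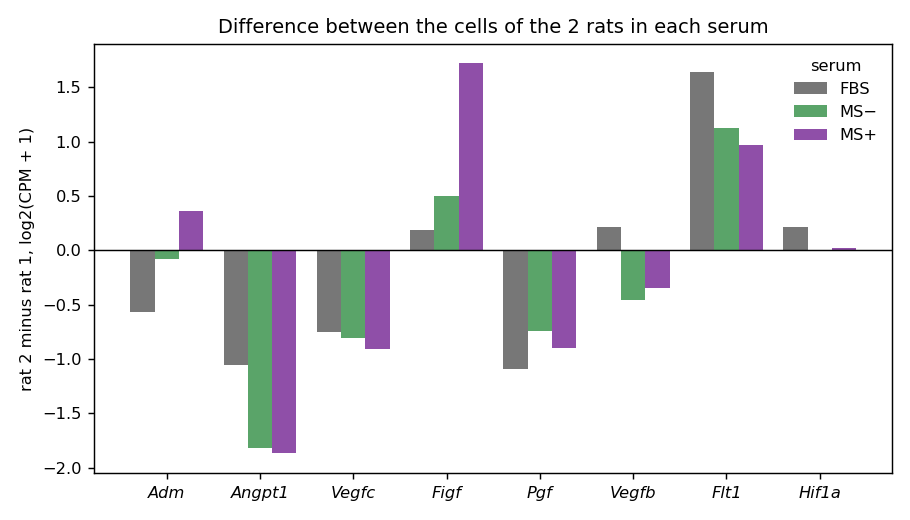
Difference between the cells of rat 2 and rat 1 for the 8 tested members, in log2(CPM + 1), as bars from 0 for FBS, MS− and MS+ (1 library per rat and serum, so no error bars). Angpt1, Vegfc and Pgf lie below 0 in all 3 sera and Flt1 and Figf above, and the bars of Hif1a are the shortest in both rat sera.

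Receptors and co-receptors of the factors were covered by 13 further genes, of which 9 were in the table and 8 were tested. Kdr, the main signalling receptor of VEGF-A, was not analysed here, nor were Itgav, Itgb3 and Ptprb. Nrp2, a co-receptor for VEGF-C, was the only receptor past the adjusted threshold in limma, and only for MS+ against FBS. It measured 518.1 and 812.1 CPM in FBS, 357.5 and 393.9 in MS−, and 236.02 and 240.1 in MS+. The 3 groups did not overlap, with FBS the highest and MS+ the lowest. Nrp2 fell by 1.44 in MS+ against FBS (SE 0.20, limma adjusted p 0.00978), a call that was lost without MS+ replicate 1 or 2 (adjusted p up to 0.0758). The log2 fold change of MS− against FBS was -0.79 (limma adjusted p 0.0780, and 0.000137 with the block), and that of MS+ against MS− was -0.65 (0.222, and 0.00215 with the block).

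Nrp1, the co-receptor of VEGF-A, stood the other way, at 77.3 and 105.5 CPM in FBS, 93.3 and 110.6 in MS−, and 165.8 and 123.3 in MS+. MS+ was above the other groups in both rats. The log2 fold change of Nrp1 was 0.66 between MS+ and FBS (limma adjusted p 0.0851, and 0.00316 with the block) and 0.49 between MS+ and MS− (0.320, and 0.0445 with the block). Flt4, the receptor of VEGF-C and VEGF-D, measured 0.92 to 3.27 CPM and was lower in MS+ than in FBS only with the block (log2 fold change -0.77, limma adjusted p 0.178, and 0.0467 with the block). Tek, the receptor of the angiopoietins, measured 0.18 to 1.47 CPM and passed in no comparison (limma adjusted p 0.594 to 0.959). Tie1 had 0 reads.

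The receptor parts of adrenomedullin differed from FBS only with the block. Calcrl measured 8.02 and 4.31 CPM in FBS, 22.68 and 7.05 in MS−, and 17.12 and 6.24 in MS+. Its log2 fold change over FBS was 0.73 in MS+ and 1.00 in MS− (limma adjusted p 0.488 and 0.409, and 0.0193 and 0.00368 with the block). Ramp1 was higher than in FBS by 0.64 and 0.63 (limma adjusted p 0.460 and 0.534, and 0.00565 and 0.00884 with the block). Ramp2, the RAMP best known for adrenomedullin, measured 21.77 to 30.47 CPM and did not pass in either fit. Ramp3, with 0 to 3.85 CPM, passed only with the block and only as lower in MS− than in FBS (limma adjusted p 0.0386). It had passed the filter on low values only through FBS, so this call is not read as support. For MS+ against MS−, Calcrl, Ramp1 and Ramp2 had log2 fold changes of -0.27, 0.02 and 0.14 (limma adjusted p 0.892, 0.994 and 0.775). In all, the adjusted threshold without the block was passed by 0 of 8 receptors for MS+ against MS− (2 at unadjusted p under 0.05), by 1 (lower) for MS+ against FBS, and by 0 for MS− against FBS (1 at unadjusted p under 0.05). With the block, in the same order, 1 was higher and 1 lower, 3 were higher and 2 lower, and 2 were higher and 2 lower, with Ramp3 among the lower ones of MS− against FBS. Over all features the shares were 0.0204%, 9.61% and 4.81% without the block, and 10.1%, 28.2% and 20.5% with it. At unadjusted p under 0.05 without the block they were 14.7%, 27.5% and 21.1%.

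The HIF machinery, which pairs with HIF-1α, hydroxylates it or directs its breakdown, was covered by 15 genes, of which 11 were tested. In limma 0 of 11 passed in any comparison without the block, where 0.0204%, 9.61% and 4.81% of all features did (MS+ against MS−, MS+ against FBS and MS− against FBS). At unadjusted p under 0.05 there were 1, 2 and 1 in the same order, where 14.7%, 27.5% and 21.1% of all features were. With the block, Cited2 passed between MS+ and MS−, and Arnt and Cited2 between MS+ and FBS, where 10.1% and 28.2% of all features did. Arnt, the partner of HIF-1α, measured 30.77 and 39.46 CPM in FBS, 44.09 and 45.73 in MS−, and 45.22 and 44.23 in MS+. FBS was the lowest in both rats. The log2 fold change of Arnt over FBS was 0.35 in MS+ (limma adjusted p 0.163, and 0.0461 with the block) and 0.36 in MS− (0.208, and 0.0549 with the block). Cited2, a HIF-induced protein that competes with HIF-1α for its coactivators, was the most abundant gene of the list in CPM and was higher in MS+ by 0.30 than in MS− and by 0.23 than in FBS (limma adjusted p 0.296 and 0.235, and 0.0302 and 0.0439 with the block). Epas1, which encodes HIF-2α, measured 14.90 to 27.19 CPM, and Vhl, which marks hydroxylated HIF for breakdown, 32.56 to 40.27 CPM. Neither passed in any comparison in either fit.

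The further list of HIF targets, transcripts that low oxygen raises in many cell types, held 37 genes, of which 33 were tested, Adm among them. In the contrast of MS+ with MS−, 0 passed the adjusted threshold in limma (background 0.0204%), and 6 were at unadjusted p under 0.05 (background 14.7%). With the block 4 were higher and 2 lower (background 10.1%). The median log2 fold change was -0.08.

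In MS+ relative to FBS, 2 of the 33 rose (Tfrc and Adm) and 1 fell (Hmox1) in limma, and 6 were higher and 6 lower with the block (background 9.61% and 28.2%). In MS− relative to FBS, 1 fell (Hmox1), and 8 were higher and 9 lower with the block (background 4.81% and 20.5%). The medians were -0.12 and 0.02. Tfrc, the transferrin receptor that takes up iron, measured 41.58 and 56.21 CPM in FBS, 94.76 and 77.55 in MS−, and 149.0 and 119.5 in MS+. The 3 groups of Tfrc did not overlap, and it rose by 1.45 in MS+ over FBS (limma adjusted p 0.00840, but 0.0691 without MS+ replicate 1). Hmox1, the heme oxygenase that frees iron from heme, measured 530.05 and 371.7 CPM in FBS, 207.5 and 187.6 in MS−, and 205.2 and 161.7 in MS+. FBS was well above both rat sera, which overlapped. Hmox1 fell by 1.28 in MS+ and by 1.17 in MS− against FBS (limma adjusted p 0.0118 and 0.0219). The call was lost without FBS replicate 1 or either replicate of the rat serum concerned, where the adjusted p reached up to 0.0733 for MS+ and 0.130 for MS−, and for MS− also without the filter.

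**Figure D4:**
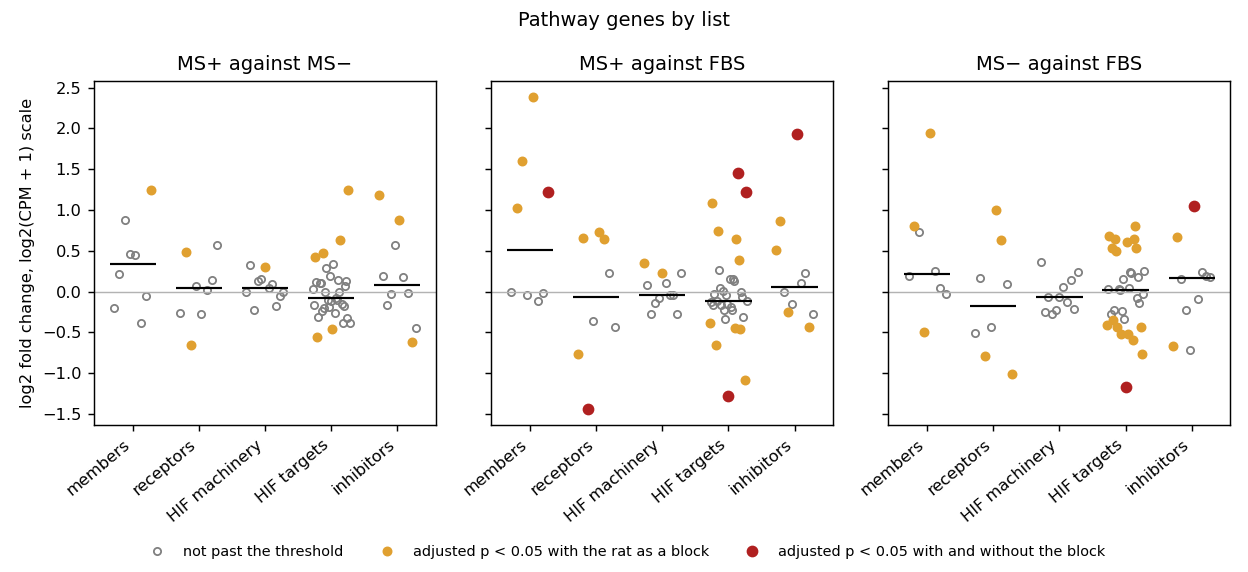
Log2 fold changes on the log2(CPM + 1) scale of the tested members and of the tested genes of the 4 further lists in each comparison, 1 point per gene, with a bar at the median of each list. Open points did not pass the adjusted threshold, orange points passed only with the rat as a block and red points passed in both fits. Red points stand only in the comparisons with FBS, and the 33 HIF targets lie on both sides of 0 in each comparison.

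Endogenous inhibitors of angiogenesis were covered by 16 genes, of which 14 were in the table and 10 were tested. In limma 1 rose against FBS in each rat serum (background 9.61% for MS+ and 4.81% for MS−), Adamts1, which encodes a secreted protease that binds VEGF-A and releases antiangiogenic thrombospondin fragments. Adamts1 measured 312.5 and 384.5 CPM in FBS, 685.1 and 753.6 in MS−, and 1318 and 1322 in MS+. The 3 groups did not overlap, and MS+ was the highest. Adamts1 rose by 1.93 (SE 0.12, limma adjusted p 0.00148) in MS+ and by 1.05 (SE 0.12, limma adjusted p 0.00752) in MS−, the latter lost without MS− replicate 2 (0.0653). Adamts1 differed between the rat sera by 0.88, higher in MS+ (limma adjusted p 0.0917, and 2.52e-05 with the block).

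In the contrast of MS+ with MS−, 0 of the 10 inhibitors passed in limma (background 0.0204%), and 3 were at unadjusted p under 0.05 (background 14.7%). With the block Thbs2 and Adamts1 were higher and Spry4 was lower (background 10.1%). Thbs2, which encodes thrombospondin-2, measured 1716 and 1172 CPM in FBS, 1037 and 764.1 in MS−, and 2094 and 1947 in MS+. MS+ lay above both other groups without overlap. MS+ exceeded MS− by 1.18 on the log2 scale (limma adjusted p 0.117, and 5.29e-06 with the block). Thbs2 and Spry4 were picked with their values in view, outside the naming rule. Sparc, the most abundant inhibitor in CPM, measured 15042 to 19987 CPM and passed in neither fit. The median log2 fold change of the 10 inhibitors was 0.08, 0.05 and 0.17 in the 3 comparisons.

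The features whose levels followed a member most closely were ranked by Pearson r of log2(CPM + 1) over the 6 libraries, among 7313 tested features with a mean of 10 CPM or more. For Adm these were Ripk3 (r 0.992), Tp53i13 (0.991) and Wbp1 (0.990). For Angpt1 they were Pgrmc2 (0.998), Agpat5 (0.991) and Vegfc (0.989), so that a fellow member, high in rat 1 and in the rat sera, was among the 3. For Hif1a they were Sgms1 (0.987), Xrn2 (0.980) and Sfxn3 (0.977). The libraries fall into 3 sera and 2 rats, so these values describe the ranking and carry no test. Vegfa, at 0 throughout, has no such ranking.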

How the data were processed

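Poly(A)-enriched RNA was sequenced for the authors. Per the labels and the study's methods, reads filtered by the sequencing company were aligned to rat build rn4 with Bowtie2 2.1.0 and counted per transcript with HTSeq 0.5.4p3 (intersection-nonempty mode), and strand use was not stated. The authors deposited the normalized signal in CPM, that is counts divided by TMM-scaled library sizes. No member overlaps a row of another symbol. Coordinates are rn4, written 1-based. Exon lengths were not used here, so levels are not compared between genes.

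Whole reads were recovered from the deposited signal (100% of values within 1e-06 reads). The table held 0 columns of other samples and no comparisons by the authors. Rows with both replicates of at least 1 group at 1 CPM or more were kept (9820). The planned test for counts was limma-voom. Because the unit was normalized, the test planned for that case was run, limma on log2(CPM + 1) (limma 3.58.1, R 4.3.3). It used lmFit and eBayes with trend, two-sided, on 6 libraries with serum as the only term, and Benjamini-Hochberg over all features. The fits were also tried on simulated reads without a rat effect, so that trial says nothing on the rat as a block. Fold changes on the log2(CPM + 1) scale understate the change of low genes. The study applied its rule to limma-voom output, so calls under that rule are not the same measure here. The replicate numbers pair the libraries, since the labels name the same 2 rats in each group; the rat 2 minus rat 1 difference correlated across features by 0.62 between FBS and MS−, 0.49 between FBS and MS+ and 0.59 between MS− and MS+. Values with the rat as a block are therefore given beside those without it.

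Alternatives were pseudocounts of 0.1 and 0.5, no filter or a stricter one (6 libraries at 1 CPM or more), DESeq2 size factors, library totals, limma-voom, edgeR 4.0.16 with and without the block and DESeq2 1.42.0 on the recovered reads, the 2 compared groups only, and leaving out each library. The rule named all 10 members, 11 direct partners, up to 3 adjusted calls with the largest change per further list (or its most abundant gene) and the 3 features most like Vegfa, Adm, Angpt1 and Hif1a. A gene that this rule names is not reported here. Members and lists were chosen with earlier results of these data known. Promoter windows are from RefSeq (GRCr8).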

Additional observations from a re-analysis of the deposited data

How the results depend on the processing

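Between MS+ and MS−, 0 members passed the adjusted threshold in limma without the block, 1 with the replicate block, 3 in edgeR with the replicate block and 1 in DESeq2. Between MS+ and FBS, 1 passed, against 0 without the filter on low values, 0 with only the groups compared, 2 in DESeq2, 4 with the replicate block and 4 in edgeR with the replicate block. The counts of 2, 3 and 4 in these comparisons hold Figf, which passed the filter only through MS+. The counts of 4 also hold Angpt1, which passed the filter only through the rat sera. The MS+ against FBS count was 0 in each of the 6 fits without 1 library, in which a lone sample is assumed to vary like the other groups. Between MS− and FBS, 0 passed, against 3 with the replicate block and 3 in edgeR with it, counts that hold Angpt1. Over all features, the adjusted count of 2 for MS+ against MS− was 123 in DESeq2, 987 with the replicate block, 995 in edgeR with it, and 0 without 1 library, without the filter or with only the groups compared. Under DESeq2 size factors it was 3, of which 66.7% were higher, in place of 50.0%. The count of 944 for MS+ against FBS was 586 without the filter, 609 with only the groups compared, 25 to 602 without 1 library, and 2773 and 2851 with the block in limma and edgeR. The 472 of MS− against FBS became 255, 278, 105 to 280, 2011 and 2066 in the same order. Beyond those given with the results, the block changed no other call of a member.

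Of the members' log2 fold changes over the alternatives, 379 kept their direction and side of the threshold, 18 newly passed, 8 no longer passed (all of Adm between MS+ and FBS) and 21 reversed. The 379 include Figf between MS+ and MS− in DESeq2, which gave no adjusted p and so no side of the threshold. Each reversal came in a fit without 1 library and none passed the threshold; since the rats differ, leaving out 1 library also shifts the balance of rats in the comparison. For MS+ against MS− these were Vegfb without MS− replicate 1 (0.03), Vegfc, Angpt1 and Flt1 without MS− replicate 2 (-0.19, -0.46 and 0.19) and without MS+ replicate 1 (-0.24, -0.48 and 0.11). For MS+ against FBS they were Vegfb (0.09), Flt1 (0.70) and Hif1a (0.08) without FBS replicate 2, Pgf without FBS replicate 1 (0.50), Vegfb (0.16) and Pgf (0.41) without MS+ replicate 2, and Flt1 without MS+ replicate 1 (0.36). For MS− against FBS they were Pgf (0.05), Flt1 (-0.57), Hif1a (-0.06) and Adm (0.26) without FBS replicate 1, Flt1 (-0.31) and Adm (0.02) without MS− replicate 2, and Vegfb without MS− replicate 1 (-0.04).

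The range of these log2 fold changes over the 6 fits without 1 library was, for MS+ against MS−, -0.43 to 0.03 (Vegfb), -0.24 to 0.67 (Vegfc), -0.48 to 1.38 (Angpt1), -0.94 to 0.19 (Flt1), 0.02 to 1.74 (Figf) and 0.01 to 0.91 (Pgf). With MS+ against FBS it was -0.19 to 0.16 (Vegfb), -0.59 to 0.50 (Pgf), -0.94 to 0.70 (Flt1), -0.12 to 0.08 (Hif1a), 0.74 to 2.47 (Figf), 1.46 to 3.33 (Angpt1) and 0.57 to 1.47 (Vegfc). For MS− against FBS it was -0.04 to 0.42 (Vegfb), -1.05 to 0.05 (Pgf), -0.57 to 1.08 (Flt1), -0.06 to 0.15 (Hif1a), -0.31 to 0.26 (Adm), 0.40 to 1.21 (Vegfc), 0.48 to 0.97 (Figf) and 1.03 to 2.85 (Angpt1).

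Under the study rule, Vegfc, Figf and Angpt1 depended on single libraries between MS+ and FBS: none of the 3 was called without FBS replicate 2. The stricter filter gave no value for Figf and Angpt1. Depth limits Figf, Angpt2 and the FBS level of Angpt1, which rest on a few reads.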
